A study of Mus musculus with 15 samples.

Results

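Iron and heme handling genes of tumor-associated macrophages (TAMs) were described in 15 RNA-seq samples. The 10 genes were chosen by symbol: the iron exporter Slc40a1 (ferroportin), the ferroxidase Cp, the transferrin receptor Tfrc and its partner Hfe, the divalent metal transporters Slc11a1 and Slc11a2, the ferritin chains Fth1 and Ftl1, and the heme oxygenase Hmox1 and the biliverdin reductase Blvrb. All 10 symbols were found among the 55335 genes of the table, and all 10 were among the 11419 genes that entered the tests, whose mean reached 1 FPKM (fragments per kilobase, scaled to the mapped fragments of a sample). Hepa1-6 cells, a hepatoma line of the mouse that here carried luciferase, were grown as orthotopic tumors in the liver of C57BL/6 mice, and TAMs were sorted from these with antibodies against CD11b and F4/80. The tumor cells, not the macrophages, carried the miRNA, delivered by lentivirus. The 3 groups were control tumors, tumors with miR-144 overexpression and tumors with miR-451a overexpression, and each held 5 samples. The labels give neither the age of the mice nor whether the samples of a group came from separate mice, so the p-values measure the spread between these samples, which may in part be technical. The study states a smaller number for this sequencing than the samples deposited for each group, so samples of a group may share mice. Because the RNA came from bulk sorted cells, fewer cells of a kind and less RNA per cell cannot be told apart.

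Macrophages take up iron bound to transferrin through the transferrin receptor, and heme iron by clearing senescent red cells and hemoglobin. Heme oxygenase opens the heme ring, which yields biliverdin, reduced in turn by biliverdin reductases, and frees iron for storage in ferritin or for export through ferroportin, the only known cellular iron exporter of mammals. Iron regulatory proteins bind hairpins called iron-responsive elements when iron is scarce, which blocks translation of ferritin and ferroportin mRNA and stabilizes the transferrin receptor mRNA. Macrophages that retain iron, with little ferroportin, are typical of inflammation, whereas iron-exporting macrophages are typical of tissue clearance and repair.

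The miRNAs that separated the groups are shown first, with the seed (bases 2 to 8) in capitals, as RefSeq gives them for the mouse build GRCm38.p6. All lie on the plus strand of chromosome 11, at chr11:78073010-78073032 for miR-144-5p, chr11:78073047-78073066 for miR-144-3p and chr11:78073186-78073207 for miR-451a. The labels do not name the arm of miR-144, so both are given, and no seed is shared among them.
miR-144-5p: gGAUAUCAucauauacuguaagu
miR-144-3p: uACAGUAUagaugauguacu
miR-451a: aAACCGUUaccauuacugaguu

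Matches to the iron-responsive element in the untranslated regions of the 10 genes are shown. Among these 10, the largest rise and the largest fall against control were in genes that hold a match. The search used the sense strand of the untranslated regions of protein-coding transcripts in GENCODE M21 (mouse build GRCm38). It required an unpaired C, any 5 bases of the upper stem, the loop CAGTGN (N stands for any base) and then 5 bases that pair with the upper stem, with G-T pairs allowed. Of 20899 genes with a 5′ untranslated region, 31 (0.148%) held the pattern there, and of 21028 genes with a 3′ untranslated region, 129 (0.613%) did. Among the 10 genes, Slc40a1, Fth1 and Ftl1 held 1 match each in the 5′ region and Tfrc held 4 in the 3′ region. The other 6 genes had no match to these letters. That does not show that they lack such an element, since a hairpin with a bulge or another loop would be missed. Each match lay within 1 exon, and the 6 loop bases are in capitals.
Slc40a1, 5′ region, chr1:45925465-45925493, minus strand: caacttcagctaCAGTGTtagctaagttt
Fth1, 5′ region, chr19:9982732-9982760, plus strand: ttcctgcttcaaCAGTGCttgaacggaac
Ftl1, 5′ region, chr7:45459779-45459807, minus strand: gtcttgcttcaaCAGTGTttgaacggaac
Tfrc, 3′ region, chr16:32631219-32631247, plus strand: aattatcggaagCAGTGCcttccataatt
Tfrc, 3′ region, chr16:32631598-32631626, plus strand: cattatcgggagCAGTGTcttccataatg
Tfrc, 3′ region, chr16:32631663-32631691, plus strand: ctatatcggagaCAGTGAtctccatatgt
Tfrc, 3′ region, chr16:32631710-32631738, plus strand: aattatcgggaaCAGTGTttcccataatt

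Depth, read from the steps between low values, was 15.5 to 30.3 M fragments per sample, with medians of 23.9 M in the control group, 22.4 M with miR-144 and 21.4 M in the miR-451a group. It is approximate, since only 36.3% to 52.6% of the low values used lay on a step. All 6 macrophage markers, including Adgre1 (the F4/80 antigen) and Itgam (CD11b), reached 1 FPKM, but they moved apart as described further on. Their summed FPKM was 1978 to 2130.0 in control samples, 2169 to 2253 with miR-144 and 2098 to 2248 with miR-451a. All 6 hepatocyte markers were listed at 0 in every sample, and the 7 erythroid markers, which would accompany engulfed or co-sorted red cells, summed to at most 0.790 FPKM. Comparisons used limma on log2(FPKM + 1), which understates the change of genes near 1 FPKM. The tests with each miRNA used the same 5 control samples and are therefore not independent of each other. Over all tested genes the change had a median of 0.13 for miR-144 and 0.14 for miR-451a, and all changes should be read relative to that shift.

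The 2 genes at the opposite ends of cellular iron flow moved furthest. Slc40a1, which exports iron, rose about 8-fold in TAMs of both miRNA groups, and Tfrc, which imports it, fell by more than an order of magnitude. In all, 4 of the 10 genes were higher and 4 were lower with miR-144, and 5 were higher and 4 were lower with miR-451a at an adjusted p under 0.05. Of all tested genes, miR-144 had 67.2% called (47.1% higher and 20.1% lower) and miR-451a had 68.3% (48.1% higher and 20.3% lower). The number called among the 10 genes is thus close to what the tested genes as a whole show. The size of the change set Tfrc and Slc40a1 apart: the absolute log2 change of Tfrc was at the 99.9th percentile of all tested genes with either miRNA, and that of Slc40a1 at percentile 99.2 with miR-144 and 99.3 with miR-451a. For the 10 genes the median absolute log2 change was 0.34 for miR-144 (0.25 over all tested genes) and 0.39 for miR-451a (0.26).

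Slc40a1 (ENSMUSG00000025993, chr1:45908068-45926523, minus strand) had 2.17, 2.52, 2.41, 2.58 and 2.33 FPKM in control samples 1 to 5. With miR-144 the values were 13.3, 16.4, 25.6, 26.03 and 16.2 FPKM, and with miR-451a they were 16.9, 20.8, 25.02, 23.2 and 15.4 FPKM. The lowest sample of either miRNA group lay far above the highest control sample, and the miRNA groups overlapped each other over most of their range. Means were 2.40 ± 0.160, 19.5 ± 5.89 and 20.3 ± 4.07 FPKM (SD, n = 5 each), an 8.12-fold rise with miR-144 and an 8.43-fold rise with miR-451a. The log2 changes were 2.55 and 2.62 (SE 0.17 each, adjusted p = 3.43e-09 and 2.26e-09 from limma). No 50-base stretch of its longest transcript occurs in a transcript of another gene.

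Tfrc (ENSMUSG00000022797, chr16:32608920-32632794, plus strand) had 178, 186, 184, 192 and 174 FPKM in control samples 1 to 5. It had 6.39, 6.61, 9.33, 9.48 and 5.91 FPKM with miR-144 and 6.15, 5.76, 7.37, 7.70 and 4.71 FPKM with miR-451a. Every sample of the miRNA groups stood below 10 FPKM and every control sample above 170, so the receptor mRNA went from the third most abundant of the 10 genes to the last but one. The mean of 183 ± 6.85 FPKM (SD, n = 5) in control TAMs was 24.2-fold that with miR-144 (7.54 ± 1.72) and 28.8-fold that with miR-451a (6.34 ± 1.22). The log2 changes were -4.45 and -4.66 (SE 0.13 each, adjusted p = 2.21e-13 and 1.25e-13 from limma). As with Slc40a1, none of its 50-base stretches is shared with another gene.

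**Figure D1:**
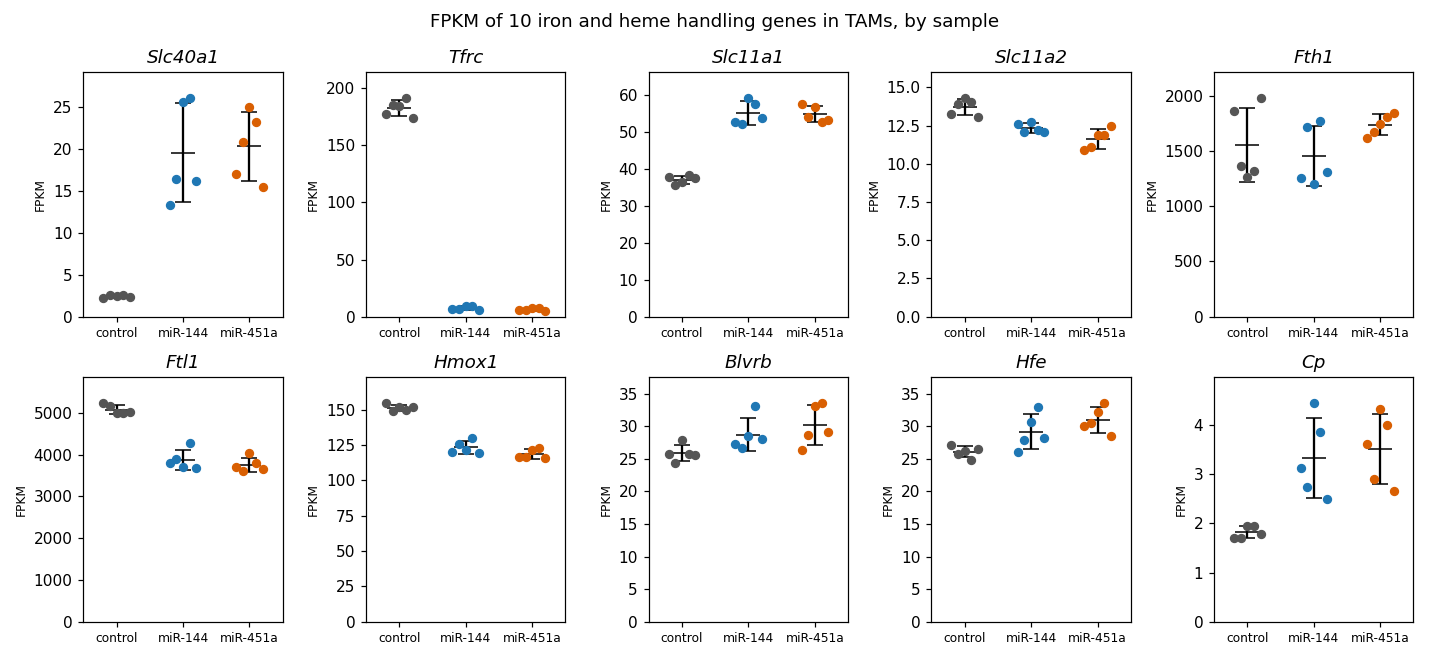
FPKM (vertical axes, from 0) of the 10 genes in each sample of the control, miR-144 and miR-451a groups. Points are samples 1 to 5 from left to right, horizontal marks are group means and bars are 1 SD. Tfrc falls from 174 to 192 FPKM in control samples to under 10 FPKM, Slc40a1 rises from under 3 FPKM to between 13.3 and 26.03 FPKM, and the Fth1 groups overlap.

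Cp (ENSMUSG00000003617, chr3:19957054-20009145, plus strand) encodes ceruloplasmin, the copper-containing ferroxidase that oxidizes iron as it leaves through ferroportin. It was the lowest of the 10 genes in every group but moved in the same direction as Slc40a1. Its FPKM was 1.70, 1.71, 1.96, 1.95 and 1.79 in control samples, 3.13, 2.74, 4.44, 3.85 and 2.49 with miR-144 and 3.62, 2.91, 4.34, 4.01 and 2.67 with miR-451a. Neither miRNA group overlapped the control group. The means were 1.83-fold and 1.93-fold that of the control group, 0.60 and 0.66 on the log2 scale (SE 0.12 each, limma adjusted p = 4.69e-04 and 1.85e-04).

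Hfe (ENSMUSG00000006611, chr13:23702034-23710854, minus strand) encodes an MHC class I-like protein that binds the transferrin receptor. It lay between 24.9 and 27.1 FPKM in control samples, 26.1 and 33.0 with miR-144, and 28.6 and 33.5 with miR-451a. The miR-451a group lay above all control samples, while the miR-144 group overlapped them. The log2 change was 0.15 with miR-144 (SE 0.06, adjusted p = 0.028) and 0.24 with miR-451a (SE 0.06, adjusted p = 0.00171). Both calls were lost when samples were centred on their medians (adjusted p = 0.817 and 0.179), while under quantile normalization the miR-451a call was kept (0.19, adjusted p = 0.0156). The call with miR-144 was also lost under quantile normalization (adjusted p = 0.156), without the filter on low values (adjusted p = 0.0546), without samples 3 and 4 of all groups (adjusted p = 0.371), without control replicate 2 or 4 (adjusted p = 0.0516 and 0.0652) or without miR-144 replicate 3 or 4 (adjusted p = 0.0688 and 0.0781).

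The metal transporters, which carry iron out of phagosomes and endosomes into the cytosol, moved apart. Slc11a1 (ENSMUSG00000026177, chr1:74375195-74386062, plus strand), the phagosomal transporter of macrophages, had 37.8, 35.5, 36.3, 38.2 and 37.4 FPKM in control samples. It had 52.7, 52.0, 59.1, 57.6 and 53.8 FPKM with miR-144 and 57.6, 54.0, 56.7, 52.6 and 53.3 FPKM with miR-451a. All 10 samples of the miRNA groups stood above all control samples, and the folds of 1.49 and 1.48 were close to each other (log2 changes 0.56 and 0.55, SE 0.04 each, adjusted p = 8.16e-09 and 8.64e-09 from limma). Slc11a2 (ENSMUSG00000023030, chr15:100387898-100425072, minus strand), the endosomal transporter that works downstream of the transferrin receptor, was at 13.04 to 14.3 FPKM in control samples, 12.1 to 12.8 with miR-144 and 10.9 to 12.4 with miR-451a. Its fall was small but free of overlap, at -0.14 and -0.22 on the log2 scale (SE 0.04 each, limma adjusted p = 0.00433 and 9.57e-05), and at -0.27 and -0.37 under median centring. With miR-144 that call was lost on rescaling to TPM (adjusted p = 0.0821) and without the samples numbered 3 and 4 (adjusted p = 0.0896).

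Ferritin, the iron storage shell of H and L chains, was the most abundant mRNA product of the set by far. Ftl1 (ENSMUSG00000050708, chr7:45457944-45459884, minus strand), the L chain that supports mineralization, had 5227, 5172, 4986, 4995 and 5012 FPKM in control samples, 3807, 3885, 3704, 4281 and 3681 with miR-144, and 3704, 3600.4, 4034, 3800.4 and 3667 with miR-451a. The groups with a miRNA lay below all control samples. On the deposited scale the log2 change from control was -0.39 for miR-144 and -0.43 for miR-451a (SE 0.04 each, adjusted p = 1.7e-06 and 5.41e-07 from limma), but under quantile normalization the direction turned, to 0.16 (adjusted p = 0.0327) and 0.27 (adjusted p = 0.00104). Of the 50-base stretches of Ftl1, 78.9% occur in transcripts of 15 other genes, among them Ftl1-ps1 and Ftl2-ps, so its level is uncertain. When the FPKM of Ftl1-ps1 and Ftl2-ps alone was added, the changes were -0.40 and -0.44. The other sharing genes were not added.

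Fth1 (ENSMUSG00000024661, chr19:9980598-9985098, plus strand), the H chain with ferroxidase activity, did not pass the test in any comparison. Its values were 1862, 1368, 1264, 1322 and 1984 FPKM in control samples, 1257, 1723, 1204, 1775 and 1311 with miR-144, and 1624, 1675, 1745, 1814 and 1850.5 with miR-451a. In the control and miR-144 groups the samples fell into a lower range of 1204 to 1368 FPKM and an upper range of 1723 to 1984 FPKM, with 3 of 5 samples in the lower range in each group. The miR-451a samples lay close together, at a mean of 1742 ± 94.1 FPKM, against 1560.1 ± 336 in control TAMs and 1454 ± 272 with miR-144 (SD, n = 5 each). The log2 changes were -0.10 (95% confidence interval -0.39 to 0.20, adjusted p = 0.56) and 0.18 (-0.11 to 0.48, adjusted p = 0.254).

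Of the heme oxygenases, which open heme breakdown, Hmox1 fell modestly, whereas Hmox2 rose, as described further on. Hmox1 (ENSMUSG00000005413, chr8:75093621-75100589, plus strand), the inducible heme oxygenase, had 154, 149, 152, 150.1 and 152 FPKM in control samples, 119.9, 126, 122, 130.1 and 119 with miR-144 and 117, 117, 122, 123 and 116 with miR-451a. Neither miRNA group overlapped the control group, and the spread within each group was narrow. The log2 changes from control were -0.30 and -0.35 (SE 0.03 each, adjusted p = 3.83e-07 and 5.44e-08 from limma), and under quantile normalization they were -0.16 and -0.20 (adjusted p = 6.20e-04 and 5.71e-05). Blvrb (ENSMUSG00000040466, chr7:27447978-27466144, plus strand), the flavin reductase also known as biliverdin reductase B, overlapped between all groups, at 24.3 to 27.8 FPKM in control samples, 26.6 to 33.1 with miR-144 and 26.4 to 33.5 with miR-451a. Its log2 change was 0.14 with miR-144 (SE 0.07, adjusted p = 0.08) and 0.21 with miR-451a (SE 0.07, adjusted p = 0.0131), and the latter call was lost under median centring (adjusted p = 0.447) and quantile normalization (adjusted p = 0.0538). The change with miR-144 passed on rescaling to TPM (adjusted p = 0.0108), with the sample number as a block (0.0243) and, narrowly, in a fit over these groups alone (0.0493). Blvra, the reductase of the biliverdin isomer that heme oxygenase yields, had 37.5, 37.3 and 37.8 FPKM in the 3 groups and did not pass (log2 changes -0.00780 and 0.0116, adjusted p = 0.839 and 0.758 from limma). Under median centring it was called lower with either miRNA (adjusted p = 0.00129 and 0.00205), and on rescaling to TPM higher with miR-451a (adjusted p = 0.0106).

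**Figure D2:**
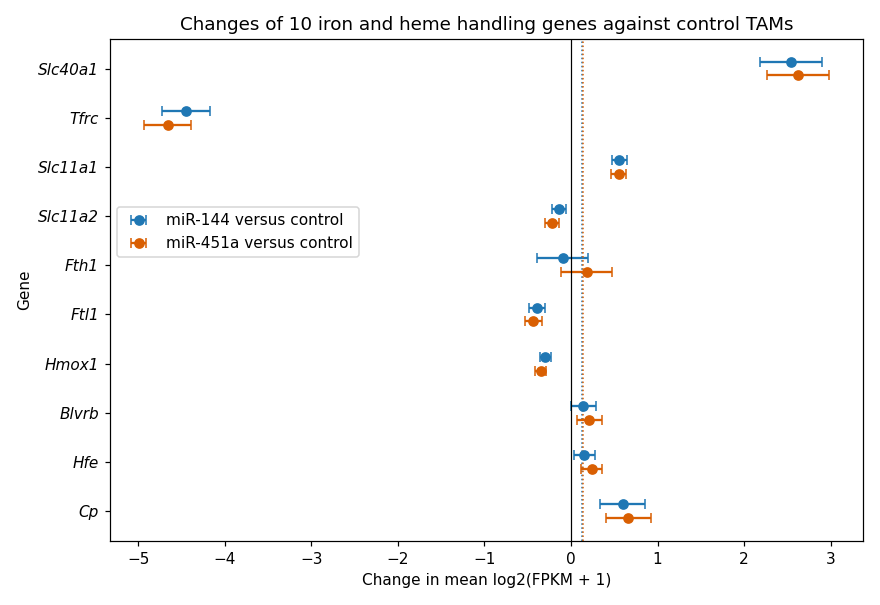
Difference in mean log2(FPKM + 1) from control TAMs (horizontal axis) for the 10 genes (vertical axis). Points are limma estimates, bars are 95% confidence intervals, and dotted lines mark the median over all tested genes (0.13 and 0.14). Tfrc at -4.45 and -4.66 and Slc40a1 at 2.55 and 2.62 stand apart from the other genes, which lie between -0.43 and 0.66.

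Counted by overlap, 3 genes lay above all control samples and 4 below them in the miR-144 group, where 53.9% of all tested genes did not overlap (37.9% above and 16% below). In the miR-451a group 4 lay above and 4 below, where 55.2% did not overlap (38.8% above and 16.4% below). The split of calls into higher and lower depended on the scaling. Under median centring it was 3 higher and 4 lower with either miRNA, under quantile normalization 4 higher and 3 lower (miR-144) or 5 and 3 (miR-451a), and on rescaling to TPM 5 and 3 or 5 and 4. Over all tested genes, median centring gave 30.8% higher and 30.7% lower for miR-144, against 31.3% and 31.8% for miR-451a. Quantile normalization gave 32% and 29.3% of all tested genes for miR-144 and 32.9% and 30% for miR-451a, and TPM 53.7% and 16.4%, and 55.6% and 16.3%. Slc40a1, Slc11a1 and Cp were called higher and Tfrc, Hmox1 and Slc11a2 lower under median centring and quantile normalization alike.

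The order of levels per base changed mainly through these genes. In control TAMs it ran Ftl1, Fth1, Tfrc, Hmox1, Slc11a1, Hfe, Blvrb, Slc11a2, Slc40a1 and Cp from high to low, and only the neighbours Hfe (24.9 to 27.1 FPKM) and Blvrb (24.3 to 27.8 FPKM) overlapped. In both miRNA groups it ran Ftl1, Fth1, Hmox1, Slc11a1, Hfe, Blvrb, Slc40a1, Slc11a2, Tfrc and Cp, and again Hfe and Blvrb overlapped. FPKM here is divided by the length of all annotated exons of a gene, 9000 bases for Slc40a1, whose longest transcript has 3928, and 9566 for Cp, whose longest has 4564, so the levels of these genes are set low relative to others such as Hfe, where both lengths are 3572 bases. Folds between groups do not depend on that length, but changes of log2(FPKM + 1) do for genes near 1 FPKM. When the division by length was undone, with the same pseudocount, the changes of Cp were 0.81 and 0.89 and those of Slc40a1 2.91 and 2.998.

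Between the miRNA groups, none of the 10 genes differed at an adjusted p under 0.05 by limma, and none of the 11419 tested genes did (0% called, smallest adjusted p 0.0752). None of the 10 lay free of overlap between these groups either, against 0.849% of all tested genes. At an unadjusted p under 0.05, 1 of the 10 genes (Slc11a2) and 596 of all tested genes passed. The 95% confidence interval of the log2 difference, miR-451a minus miR-144, was -0.28 to 0.44 for Slc40a1, -0.49 to 0.06 for Tfrc, -0.02 to 0.57 for Fth1 and -0.20 to 0.32 for Cp. For the others it was narrower, within -0.16 and 0.21. These intervals are not adjusted for the number of tests. Differences within them remain compatible with the data, so the groups were not shown to be alike.

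Ratios of paired genes within a sample do not depend on a factor that scales the whole sample, though quantile normalization, which acts on ranks, changes them. The ratio of Slc40a1 to Tfrc, export against import, was 0.0122, 0.0136, 0.0131, 0.0135 and 0.0134 in control samples. It was 2.08, 2.48, 2.74, 2.75 and 2.73 with miR-144 and 2.75, 3.60, 3.40, 3.01 and 3.27 with miR-451a. Its change from control was 7.60 (miR-144) and 7.93 (miR-451a) on the log2 scale (two-sided exact permutation test, adjusted p = 0.0119 over 12 tests for each). The miR-451a samples also lay above the miR-144 samples, by 0.33 on the log2 scale and by a narrow margin (exact permutation test, p = 0.00794, the smallest that 5 against 5 samples allow, adjusted p = 0.0119). Under quantile normalization with that pseudocount these groups overlapped, at a difference of 0.31 (exact permutation test, adjusted p = 0.0408). These ratios differ from the deposited ones in the pseudocount as well as in the scaling.

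Fth1 to Ftl1, the ferritin H to L ratio, was 0.254 to 0.396 in control samples, 0.325 to 0.444 with miR-144 and 0.433 to 0.505 with miR-451a. It was higher by 0.62 on the log2 scale with miR-451a than in control TAMs (exact permutation test, adjusted p = 0.0119) and by 0.32 than with miR-144 (adjusted p = 0.0317), while the difference of 0.30 between miR-144 and control did not pass (adjusted p = 0.113). Under quantile normalization neither passed, at 0.0486 for miR-451a against control and 0.11 against miR-144 (exact permutation test, adjusted p = 0.77 and 0.381), and the difference of miR-144 from control turned to -0.0614 (adjusted p = 0.736). Ftl1, with its shared sequence, enters this ratio. The difference between the miRNA groups did not pass without any of miR-451a replicates 2, 3, 4 and 5 (adjusted p = 0.0741, 0.0529, 0.0741 and 0.0741). Slc11a1 to Slc11a2 rose from 2.54 to 2.87 in control samples to 4.17 to 4.71 with miR-144 and 4.28 to 5.28 with miR-451a, log2 differences of 0.72 and 0.80 (exact permutation test, adjusted p = 0.0119 each). Hmox1 to Blvrb fell from 5.47 to 6.12 in control samples to 3.93 to 4.72 and 3.67 to 4.43, log2 differences of -0.44 and -0.57 (exact permutation test, adjusted p = 0.0119 each), or -0.26 and -0.37 under quantile normalization (adjusted p = 0.0159 each). Between the miRNA groups, the last 2 ratios did not differ past the threshold (exact permutation test, adjusted p = 0.222 and 0.113).

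**Figure D3:**
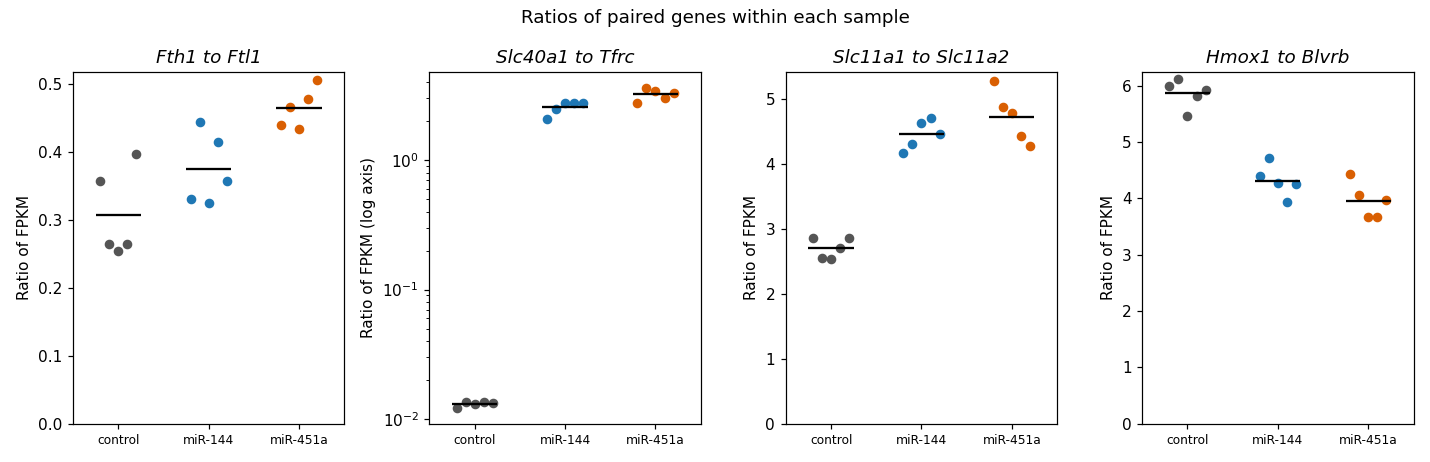
Ratio of FPKM within each sample (vertical axes, log scale for Slc40a1 to Tfrc and from 0 for the others) in the control, miR-144 and miR-451a groups. Points are samples and lines are group means. The ratio of Slc40a1 to Tfrc moves from at most 0.0136 in control samples to at least 2.08 in the miRNA groups.

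Within the miRNA groups, the spread of several genes followed the sample numbers. Samples 3 and 4 were the highest pair of the 5 in both miRNA groups for Slc40a1, Tfrc, Blvrb, Hfe and Cp, that is 5 of the 10 genes, against 4.79% of all tested genes. A further 7.19% of all tested genes had these samples as the lowest pair in both groups. The same samples thus held the most exporter and the most importer mRNA, although the groups differ from control in opposite directions for these genes. Cd5l, a secreted macrophage protein and a marker on the Kupffer cell list, was also highest in samples 3 and 4 of both miRNA groups. The labels name no batch, day or animal for these numbers. Without samples 3 and 4 in any group, 6 of the 10 genes were called with miR-144, Hfe (adjusted p = 0.371) and Slc11a2 (adjusted p = 0.0896) being lost, and 9 with miR-451a. In that fit 57.4% and 59.8% of all tested genes were called.

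**Figure D4:**
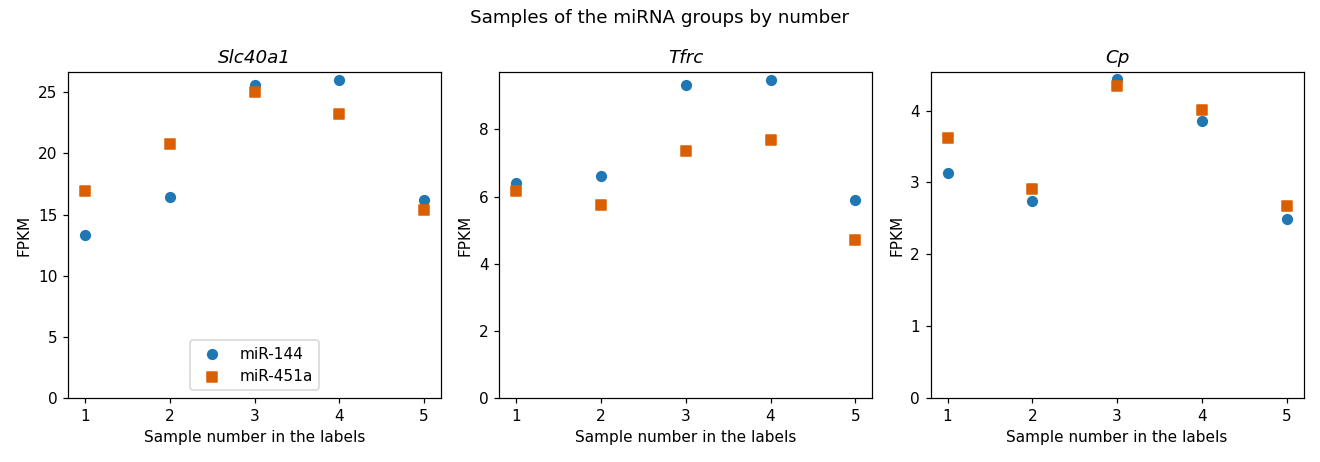
FPKM (vertical axes, from 0) of Slc40a1, Tfrc and Cp in samples 1 to 5 (horizontal axis) of the miR-144 group (circles) and the miR-451a group (squares). Samples 3 and 4 are the highest pair in both groups for each of the 3 genes.

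Markers of other cells moved with these changes. The summed FPKM of 5 Kupffer cell markers was 3.30 to 3.77 in control samples, 17.1 to 50.1 with miR-144 and 15.99 to 47.3 with miR-451a. Only Cd5l of that list reached 1 FPKM, and the defining marker Clec4f was listed at 0 in every sample. The 4 monocyte markers summed to 2.39 to 3.75, 7.05 to 11.98 and 6.59 to 11.1 FPKM, and 4 fibroblast genes (Col1a1, Col1a2, Col3a1 and Dcn) to 103 to 128, 136 to 201 and 174 to 223 FPKM. Col1a1 and Col1a2 were called higher with either miRNA. With miR-144, Col3a1 and Dcn overlapped the control group and were not called (limma, adjusted p = 0.139 and 0.134). Of the 6 macrophage markers, 5 were called higher and 1 lower with either miRNA. Adgre1, whose product was used in the sort, rose from 137 FPKM to 361 with miR-144 and 354 with miR-451a, 2.63-fold and 2.59-fold (adjusted p = 2.15e-12 and 2.49e-12 from limma). Itgam, also used in the sort, rose 2.51-fold and 2.10-fold, with the miR-451a call lost under median centring (adjusted p = 0.0553). Fcgr1, a high-affinity IgG receptor, rose 6.77-fold and 6.53-fold, Csf1r 1.72-fold and 1.73-fold and Mertk 1.51-fold and 1.54-fold. Cd68, the most abundant of the 6, fell from 1444 FPKM to 919 and 910.4 (log2 changes -0.65 and -0.67, or -0.42 and -0.41 under quantile normalization). The 4 B cell markers summed to at most 0.375 FPKM in control samples and 1.73 in the miRNA groups, and the 4 endothelial markers to 2.72 to 3.39, 3.53 to 4.52 and 3.45 to 5.38. The sum reached at most 0.490 FPKM for T cells and 1.26 for neutrophils and overlapped between groups. The part of these cells in the changes of Slc40a1, Tfrc and Cp was not tested.

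The genes whose profile over the 15 samples was most like those of the 3 leading genes were found by the root mean square distance of log2(FPKM + 1), each relative to its control mean. Nearest to Tfrc were Itgax (distance 0.197), which encodes the integrin CD11c, Adipoq (0.219), which encodes adiponectin, and Cldn11 (0.267), a tight junction gene. Itgax fell from a mean of 93.1 FPKM in control TAMs to 3.63 with miR-144 and 3.43 with miR-451a. Adipoq fell from 21.4 to 0.0237 and 0.0371 FPKM, and Cldn11 from 26.4 to 0.0272 and 0 FPKM. Unlike that of Tfrc, their fall ended at or near 0, and the pseudocount of 1 limits it on the log2 scale. Nearest to Slc40a1 were Maf (0.162), a macrophage transcription factor, Gpr162 (0.217) and Abca9 (0.221), and Maf rose from 7.66 to 51.1 and 56.1 FPKM. Nearest to Cp were Tbc1d4 (0.0923), Mertk (0.1004), a receptor for apoptotic cells, and Igf1r (0.108). Mertk rose from 40.6 FPKM to 61.2 and 62.7. These are descriptions of likeness over 15 samples, and the genes were picked for it.

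Of 65 other iron and heme genes, 46 were tested. For miR-144, 18 were higher, 10 lower and 18 not called, and for miR-451a, 19 were higher, 12 lower and 15 not called, against 67.2% and 68.3% called over all tested genes. Their median log2 change was -0.02 and 0.03, below the medians of 0.13 and 0.14 over all tested genes. The split turned with the scaling: median centring gave 14 higher and 22 lower (miR-144) and 15 and 19 (miR-451a), and quantile normalization gave 15 and 17, and 14 and 17, where the shares of all tested genes were the near-even ones given above. TPM gave 19 and 10, and 21 and 9. Median centring added 12 calls with miR-144 and 7 with miR-451a, all of them lower, and removed 4 with each. None differed between the miRNA groups by limma, where 2 passed at an unadjusted p under 0.05. Of the 46, 5 passed with a change of at least 1 on the log2 scale, against 7.78% (miR-144) and 8.27% (miR-451a) of all tested genes, and they were the same genes with either miRNA: Cd163 and Slc25a37 rose, and Steap3, Alas1 and Cisd1 fell.

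Around the transferrin receptor, Steap3 stood out. It encodes the endosomal ferrireductase that reduces transferrin iron before Slc11a2 moves it to the cytosol, and it fell from 16.4 ± 1.04 FPKM to 7.28 ± 0.352 with miR-144 and 7.17 ± 0.381 with miR-451a (SD, n = 5 each). Its log2 changes were -1.07 and -1.09 (adjusted p = 2.05e-11 and 1.54e-11 from limma). Of the other genes of iron uptake, the zinc and iron transporters Slc39a8 and Slc39a14 rose from lows of about 1 FPKM (0.958 to 1.57 and 1.66 for Slc39a8, 1.43 to 1.98 and 1.96 for Slc39a14, whose call with miR-451a was lost under quantile normalization). Trf, which encodes transferrin, had 125, 141 and 143 FPKM in the 3 groups and did not pass the test (adjusted p = 0.151 and 0.125), nor did the endolysosomal channel Mcoln1 (13.003, 12.4 and 12.6 FPKM, adjusted p = 0.0705 and 0.236). Mcoln1 was called lower with either miRNA under median centring and quantile normalization, and Trf higher with either under quantile normalization and TPM.

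The iron sensors were split. Aco1, which encodes iron regulatory protein 1, fell from 23.8 ± 0.786 to 16.3 ± 0.972 and 16.4 ± 0.537 FPKM (SD, n = 5 each, log2 changes -0.52 and -0.51, adjusted p = 1.37e-08 and 1.46e-08 from limma). Ireb2, which encodes iron regulatory protein 2, was 7.51, 8.71 and 8.65 FPKM, a rise (adjusted p = 8.06e-05 and 1.21e-04) that was lost under median centring and quantile normalization. Fbxl5, the ubiquitin ligase subunit that removes iron regulatory protein 2 when iron is replete, rose from 2.78 to 4.45 and 4.63 FPKM (log2 changes 0.53 and 0.57). The iron chaperones differed, with Pcbp1 lower (133, 109 and 108 FPKM) and Pcbp2 higher (21.3, 25.4 and 27.8 FPKM, with the miR-144 call lost under median centring). Ncoa4, the receptor that carries ferritin to the lysosome, varied widely and was not called (21.8 ± 3.44, 16.1 ± 3.39 and 20.7 ± 8.498 FPKM, SD, n = 5 each). With miR-144 it was called lower under median centring (-0.56 on the log2 scale, adjusted p = 0.0325 from limma).

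Hemoglobin and heme uptake was led by Cd163, the scavenger receptor for hemoglobin bound to haptoglobin. It rose from 0.958 ± 0.119 FPKM to 5.69 ± 1.02 with miR-144 and 6.10 ± 1.20 with miR-451a (SD, n = 5 each), which is 1.76 and 1.84 on the log2 scale (limma, adjusted p = 2.62e-09 and 1.48e-09). The constitutive heme oxygenase Hmox2 rose from 29.3 to 47.7 and 44.7 FPKM, opposite to Hmox1. Slc48a1, which moves heme out of the phagolysosome, fell from 84.6 to 67.2 and 64.1 FPKM. Slc46a1, a folate and heme transporter, and Abcg2, a heme efflux pump, rose (log2 changes 0.35 and 0.33 with miR-144, 0.35 and 0.37 with miR-451a). Slc46a1 was not called under quantile normalization. The hemopexin receptor Lrp1 had 162, 156 and 152 FPKM and did not pass, but was called lower with either miRNA under median centring (adjusted p = 0.00827 and 0.00184). Spic, a heme-induced transcription factor of red pulp macrophages, had a mean under 1 FPKM in every group (0.249, 0.677 and 0.682) and was left out of the test. Without the filter on low values it was called higher with either miRNA (adjusted p = 0.0356 and 0.0335 from limma), although the groups overlapped.

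In the mitochondrion, where heme and iron-sulfur clusters are made, the rate-limiting enzyme of heme synthesis, Alas1, fell from 29.4 ± 1.49 FPKM to 9.20 ± 0.507 with miR-144 and 8.53 ± 0.408 with miR-451a (SD, n = 5 each, log2 changes -1.57 and -1.67, adjusted p = 1.6e-13 and 7.72e-14 from limma). Cisd1, which encodes the outer membrane iron-sulfur protein mitoNEET, fell from 31.8 to 7.49 and 7.53 FPKM (log2 changes -1.95 and -1.94). The iron importer of the inner membrane, Slc25a37 (mitoferrin 1), rose from 3.18 to 11.0 and 11.2 FPKM (log2 changes 1.53 and 1.55). Of the 18 genes shown from this list, 4 were higher with either miRNA (Slc25a37, Slc25a28, Ppox and Fech), 5 were lower with either (Alas1, Cisd1, Abcb8, Cpox and Iscu), and Alad and Slc25a39 were lower with miR-451a in addition. Fech was not called with either miRNA under quantile normalization, nor with miR-144 under median centring (adjusted p = 0.625), whereas Alad and Slc25a39 were called lower with miR-144 too under median centring. In addition, Slc25a39, at 25.5, 24.0 and 23.2 FPKM, was not called on rescaling to TPM, nor were Alad and Iscu with miR-451a.

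Nfe2l2, the transcription factor NRF2 that induces Hmox1 and ferritin genes, rose from 67.8 ± 2.08 FPKM to 99.1 ± 2.06 and 99.2 ± 2.93 (SD, n = 5 each, log2 change 0.54 with either miRNA, adjusted p = 2.63e-10 and 2.4e-10 from limma). Its small Maf partner Mafg rose from 15.1 to 18.9 and 18.1 FPKM, with the miR-451a call lost under median centring. Bach1, the heme-binding repressor of the same genes, differed by only 0.07 and 0.08 (adjusted p = 0.033 and 0.0224), and its direction reversed under median centring (-0.06 and -0.07). Keap1 was called with miR-451a only (adjusted p = 0.024), and the call was lost under median centring and quantile normalization. Neo1, a co-receptor of the hepcidin pathway, rose from 1.90 to 3.19 and 3.26 FPKM and was the only gene of the hepcidin and ferroxidase list that was tested.

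**Figure D5:**
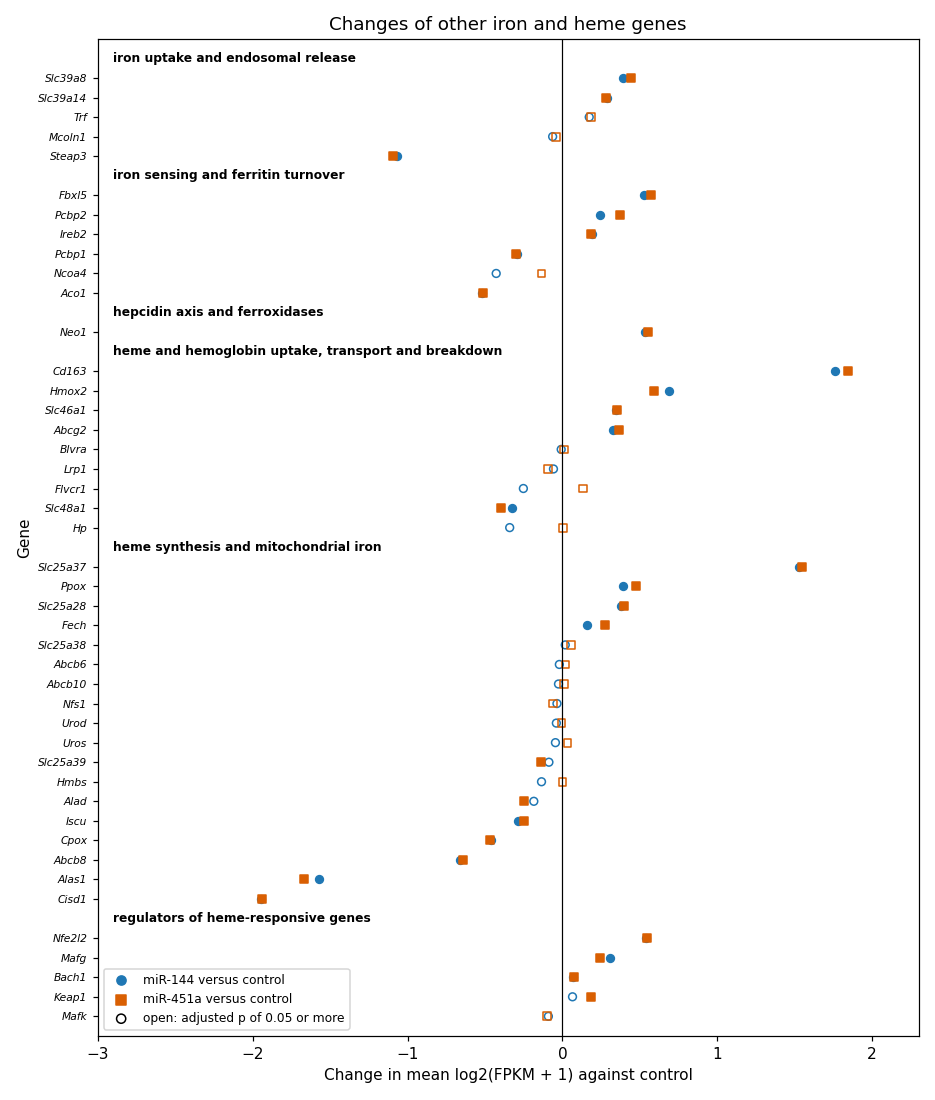
Difference in mean log2(FPKM + 1) from control TAMs (horizontal axis) for tested iron and heme genes outside the 10, by list (vertical axis). Circles stand for miR-144 and squares for miR-451a, and open symbols did not pass an adjusted p under 0.05. Cd163 and Slc25a37 lie above 1, and Steap3, Alas1 and Cisd1 below -1.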

How the data were processed

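RNA of sorted TAMs from 15 samples was sequenced on an Illumina HiSeq, and the authors deposited gene-level FPKM. The submitters' processing notes name FastQC 0.11.2, STAR and StringTie. The genome build and annotation are not given in the sources used here. Multiplied by the length of all exons of a gene in GENCODE M21, the deposited FPKM of 98.9% of 9377 genes with several transcripts came out as whole multiples of 1e-06 in every sample (0.565% with a length 1 base longer), so coordinates of that annotation were used. Counts were not recovered.

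Groups and numbers came from the labels. limma 3.58.1 (R 4.3.3, mean-variance trend, 3 groups in 1 fit, Benjamini-Hochberg) was run on log2(FPKM + 1) over genes whose mean reached 1 FPKM, and tested on simulated data. Ratios were compared with two-sided exact permutation tests, computed directly over all 252 splits of 5 against 5 samples (Python 3.11.15, numpy 2.4.6). The 10 genes and the lists of other genes were chosen with earlier results of these data known. Of each list, the 3 genes of highest mean and those behind counts of 5 or fewer are named, and Spic and Blvra for their roles, chosen after their values were seen. Marker genes are named where they move with a result, and genes of like profile by the smallest distance. Samples of a group differed by more than counting noise (lowest mean chi-square per gene 9.48), so none was merged as a library deposited again, which does not show that they came from separate mice. Other scalings, filters, pseudocounts, a replicate block and leaving samples out were tried. The values of 2 genes of the heme synthesis list are not reported here, while the counts over all listed genes include them.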

Additional observations from a re-analysis of the deposited data

Results flagged for a closer look

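Chance alone would set about 4.5 of the 90 groups tested apart by their highest or lowest sample, and 4 were found. Replicate 4 of the miR-144 group had 33.1 FPKM of Blvrb, the nearest sample having 28.5, so the gap was 0.716 of the range of the group. Replicate 3 of the miR-451a group had 35.4 FPKM of Ncoa4, the nearest having 19.4 (gap 0.748 of the range). Replicate 1 of the control group had 24.5 FPKM of Pcbp2, the nearest having 21.0 (gap 0.813). Replicate 1 of the miR-451a group had 3.66 FPKM of Neo1, the nearest having 3.21 (gap 0.824).

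The miRNA groups differed from each other in 2 within-sample ratios, tested as a difference between the groups. The change of Slc40a1 to Tfrc from control was larger with miR-451a than with miR-144 by 0.33 on the log2 scale, and that of Fth1 to Ftl1 by 0.32 (two-sided exact permutation test, adjusted p = 0.0119 and 0.0317). Under quantile normalization the latter was 0.11 and did not pass (adjusted p = 0.381). In the former, all 5 miR-451a samples lay above all 5 miR-144 samples as deposited, whereas under quantile normalization they overlapped (adjusted p = 0.0408).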

How the results depend on the processing

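The fall of Tfrc and the rise of Slc40a1 against control passed the threshold under all alternatives run. Quantile normalization turned Ftl1, to 0.16 with miR-144, 0.27 with miR-451a and 0.12 between the miRNA groups, and Fth1 with miR-144, to 0.10. Between the miRNA groups Slc11a1 turned to 0.00264 under quantile normalization, 0.00680 under TPM and 0.0545 without samples 3 and 4. Over the samples left out in turn it ranged from -0.0247 to 0.0205, Slc40a1 from -0.0393 to 0.19 and Cp from -0.00919 to 0.15. Without samples 3 and 4, an alternative chosen after seeing the data, Fth1 with miR-451a turned to -0.00198. A minimum absolute log2 change of 1 left 2 of the 10 genes (Slc40a1 and Tfrc) with either miRNA and 5 other genes with each, against 7.78% (miR-144) and 8.27% (miR-451a) of all tested genes. A minimum mean of 5 FPKM left 18 and 20 of 30 other genes called, against 71.9% and 72.6% of all genes tested there. Quantile normalization with a pseudocount of 1 was added for the ratios after seeing the data. There Fth1 to Ftl1 turned to -0.0614 for miR-144 and was 0.0486 for miR-451a, against control, and 0.11 between the miRNA groups. Blvrb with miR-144 passed under TPM (adjusted p = 0.0108), with the replicate block (0.0243) and in a fit over 2 groups (0.0493). The causes were not tested.

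The sample numbers were not taken to pair the samples, since the labels give them no shared source and the deviations of same-numbered samples correlated by -0.15 to 0.26. As a hint that numbers share something, all 5 pairs of control and miR-451a samples correlated positively (0.0658 to 0.26), and samples correlated best with their own number in 12 of 30 cases. Between miR-144 and miR-451a samples, number 1 correlated by -0.15 and numbers 2 to 5 by 0.118, 0.143, 0.24 and 0.152. Same-numbered control and miR-144 samples correlated by -0.13 to 0.11. With the replicate block, 9 of the 10 genes were called with either miRNA, and 30 and 32 other genes, against 67.5% and 68.8% of all tested genes. For the ratios, the exact sign-flip test of the block could reach only p = 0.0625 (adjusted 0.0833), so none passed at unchanged differences: 0.62 and 0.32 for Fth1 to Ftl1 (miR-451a against control and against miR-144), 7.60, 7.93 and 0.33 for Slc40a1 to Tfrc, 0.72 and 0.80 for Slc11a1 to Slc11a2, -0.44 and -0.57 for Hmox1 to Blvrb. Without samples 3 and 4, where 3 against 3 samples cannot pass, these were 0.49 and 0.33, 7.53, 7.93 and 0.40, 0.65 and 0.80, and -0.43 and -0.53. With each sample left out, the difference between the miRNA groups ranged from 0.27 to 0.38 for Fth1 to Ftl1 and from -0.17 to -0.0914 for Hmox1 to Blvrb, which passed without miR-451a replicate 1. Depth is approximate, and the level of Cp and Cd163 in control TAMs was close to the pseudocount.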
